A study of Mus musculus with 9 samples.

Results

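The 10 genes described here encode the machinery by which a cell shows fragments of its own proteins to cytotoxic T cells on MHC class I, together with the factors that switch this machinery on. They are the heavy chain genes H2-K1 and H2-D1, the light chain gene B2m, the peptide transporter genes Tap1 and Tap2, the tapasin gene Tapbp, the immunoproteasome subunit genes Psmb8 and Psmb9, the class I transactivator gene Nlrc5 and the interferon regulatory factor gene Irf1. They were taken by symbol from a table of 51912 genes, all 10 were found in it, and all 10 passed the low-count filter that left 17289 genes to test. They are taken by symbol, with no threshold on a measured value.

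The data are RNA sequencing counts from 9 samples of organoids, pieces of epithelium taken from the mammary tumours of FVB/NJ mice. All mice carried MMTV::PyMT, in which the mouse mammary tumour virus promoter drives the polyoma middle T oncogene in mammary epithelium, and (R26)pCA::mT/mG, a fluorescent reporter that Cre recombines. The 4 WT samples were Cdh1+/+ and the 5 E-cad-KO samples were Cdh1fl/fl, Cdh1 being the gene for the adhesion molecule E-cadherin. Every sample, WT included, was exposed overnight to an adenovirus carrying Cre and then kept for 48 h in 3D collagen I with b-FGF2, so the groups share viral exposure and differ in the floxed alleles. Cre came from a virus and not from a cell type promoter, so deletion depends on which cells were transduced. Ages were not used here. The series calls the samples biological replicates but ties none to an animal, so p-values cover only the spread among these 9 samples.

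As background, class I molecules are pairs of a polymorphic heavy chain and beta-2 microglobulin. The proteasome cuts cellular proteins into peptides, TAP pumps them into the endoplasmic reticulum, and tapasin bridges TAP to empty class I molecules and helps them take up peptides that bind tightly. Interferon-gamma raises nearly the whole set, in part through IRF1 and NLRC5, and tumours often lower it, which hides them from CD8+ T cells.

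On GRCm38, 7 members lie together on chromosome 17: Tapbp, H2-K1 (33996017 to 34000347), Psmb9 (34181987 to 34187764), Tap1 (34187553 to 34197225), Psmb8 (34197721 to 34201454), Tap2 (34203527 to 34216321) and H2-D1 (35262730 to 35267499). B2m is on chromosome 2 (122147686 to 122153083) and Irf1 on chromosome 11 (53770014 to 53778374).

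The promoters of several members hold the letters that such factors are known to read, and they are printed here because the members are a textbook example of genes controlled together. RefSeq promoter sequences on GRCm38.p6 were found for 8 of the 10 members, and Tap2 and Nlrc5 had no entry. The 250 bases before each start were searched on both strands for GAAANNGAAA (the repeat of an interferon-stimulated response element), GAAGTGAAA (its form in class I heavy chain genes), CCAAT (bound by NF-Y), TGACG (bound by factors of the CREB family) and the NF-kB motif. Matches are in capitals and are descriptions of letters, not of binding. The mouse reference is C57BL/6J, while the heavy chain genes of FVB/NJ belong to another H2 haplotype, so these are reference letters and not those of the animals. The upstream stretch of 1 RefSeq start is shown for 3 members. For H2-K1 and Irf1 its 250 bases hold no annotated exon. For B2m the last base is exonic and is left off, so 249 bases are shown. H2-K1 and Irf1 each have another RefSeq start, whose stretch overlaps an annotated exon and is not shown.
H2-K1, chr17:34000348-34000597, minus strand: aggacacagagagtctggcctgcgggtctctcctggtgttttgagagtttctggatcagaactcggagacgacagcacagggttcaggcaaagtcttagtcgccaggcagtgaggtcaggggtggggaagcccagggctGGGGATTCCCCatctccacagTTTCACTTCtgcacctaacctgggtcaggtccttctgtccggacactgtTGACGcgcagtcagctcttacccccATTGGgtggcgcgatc
B2m, chr2:122147437-122147685, plus strand: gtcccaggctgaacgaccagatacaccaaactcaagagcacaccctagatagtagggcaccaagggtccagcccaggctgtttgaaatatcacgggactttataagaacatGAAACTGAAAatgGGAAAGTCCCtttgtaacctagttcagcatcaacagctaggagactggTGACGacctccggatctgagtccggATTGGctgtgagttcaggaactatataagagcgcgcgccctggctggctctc
Irf1, chr11:53769764-53770013, plus strand: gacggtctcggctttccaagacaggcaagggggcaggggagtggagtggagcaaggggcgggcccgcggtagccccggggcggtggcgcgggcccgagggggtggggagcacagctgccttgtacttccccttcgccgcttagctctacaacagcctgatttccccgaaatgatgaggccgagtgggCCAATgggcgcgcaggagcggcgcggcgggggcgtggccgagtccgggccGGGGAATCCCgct

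For 3 of the members whose upstream stretch overlaps an annotated exon, 30 bases around a match are shown.
H2-D1, chr17:35262923-35262952, plus strand: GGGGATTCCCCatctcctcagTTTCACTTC
Psmb9, chr17:34187470-34187499, minus strand: ccagattgagggcaggaccctctgtCGTCA
Tapbp, chr17:33919228-33919257, plus strand: aaATTGGgttgtcatgaaagtgggtggaca

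H2-K1 and H2-D1 carry in the same order the NF-kB motif, then GAAGTGAAA, then the letters TGACG, then the letters CCAAT, and their upstream stretches were identical at 166 of 190 aligned bases (87.4%). GAAGTGAAA was found in 0.402% of 32817 promoters of the same length, and among the 8 members in these 2 alone. The TGACG printed for Psmb9, as its complement, is the same genomic site that lies upstream of Tap1, because both genes start close together and run in opposite directions. The CCAAT match of Psmb9 is likewise the same genomic site as that of Tap1. Each of these shared sites is counted for both genes in what follows. TGACG was found in 5 of 8 members (17.7% of all promoters), CCAAT in 7 of 8 (33.8%) and the NF-kB motif in 4 of 8 (7.25%). GAAANNGAAA was found in B2m alone (2.97% of all promoters). In the Tapbp window CCAAT was the only one of these motifs found. That window lies within annotated exons, those of Zbtb22 among them.

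In the series as a whole, library totals ran from 44890302 to 64763645 counts. CPM below means counts scaled to a common library size with TMM factors. Cdh1, the targeted gene, was lower in all 5 E-cad-KO libraries than in all 4 WT libraries and fell to 0.482 of the WT level (edgeR adjusted p = 0.0275), the direction its labels give. The labelled epithelium was evident: the 8 epithelial markers summed to 3424 to 5784 CPM. Libraries differed in markers of other cells. The 15 macrophage markers summed to 19.9 to 402 CPM in WT and 28.9 to 167 CPM in E-cad-KO, with WT 4 highest and WT 1 lowest. Fibroblast markers summed to 66.3 to 363 CPM in WT and 135 to 227 CPM in E-cad-KO, endothelial markers to 5.21 to 11.2 and 3.58 to 6.44 CPM. Of 7 dendritic cell markers Clec9a and Cd209a were at 0 counts in every library, Zbtb46 stood at 4.14 to 7.27 CPM, and the other 4 were at most 0.876 CPM. Markers of T and NK cells summed to at most 0.529 CPM and those of B cells to at most 0.986 CPM, and Cd3e, Gzma, Prf1 and Ncr1 were at 0 counts in every library. In whole organoids a change in the number of cells of a type and a change in RNA per cell cannot be told apart.

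One member rose in E-cad-KO organoids, the tapasin gene Tapbp, by 1.37-fold. None of the other 9 passed the test, and they lay on both sides of 0. Of the 10 members, 1 was called higher (background 0.908% of tested genes) and 0 lower (background 0.503%) at a Benjamini-Hochberg adjusted p under 0.05 by edgeR's quasi-likelihood test, and 2 had an unadjusted p under 0.05 (background 16.7%), Tapbp and Psmb9. Of the other 9, 6 had a positive and 3 a negative log2 fold change. The median log2 fold change over the 10 members was 0.08 against -0.01 over all tested genes. One call in 10 genes is too few to say anything about the set.

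**Figure D1:**
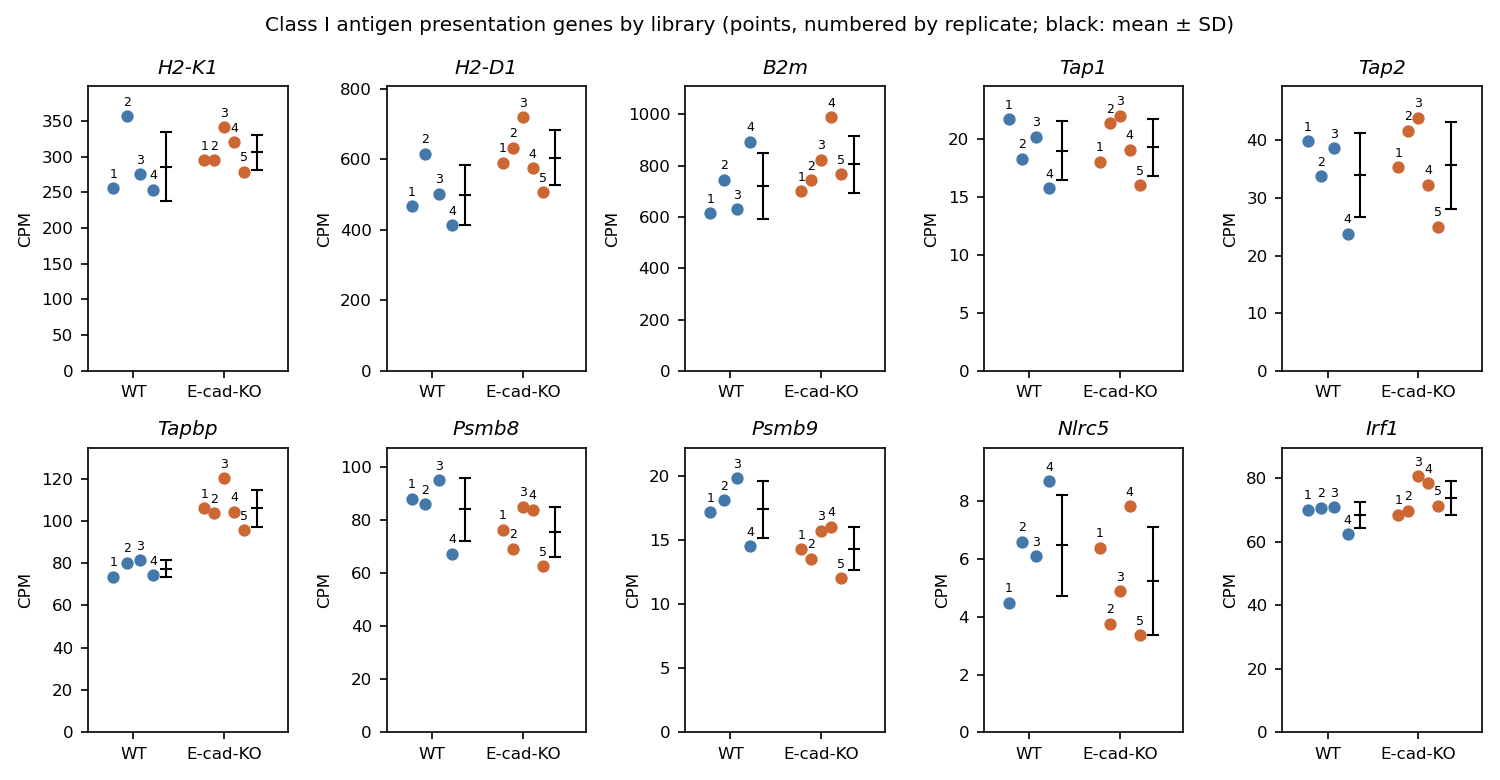
CPM (y axes, each from 0) of the 10 members in each library, points numbered by replicate, with mean ± SD in black (n = 4 WT, n = 5 E-cad-KO). The 2 groups are apart for Tapbp alone, where the E-cad-KO libraries start at 95.7 CPM and the WT libraries end at 81.3 CPM.

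Tapbp encodes tapasin, the chaperone that holds empty class I molecules next to TAP. The WT libraries held 73.6, 80.2, 81.3 and 74.4 CPM of Tapbp, against 105.9, 103.6, 120.1, 104.3 and 95.7 CPM in E-cad-KO 1 to 5. Every E-cad-KO library was above every WT library, which was so for 4.28% of all tested genes, and no library stood apart within its group. The means were 77.4 ± 3.93 CPM over the WT libraries (SD, n = 4) against 106 ± 8.88 CPM over the E-cad-KO libraries (SD, n = 5). The fitted log2 fold change of Tapbp was 0.45 with an SE of 0.07 (edgeR adjusted p = 0.0232), a 1.37-fold rise with a 95% interval of 1.22 to 1.53 on 7 residual degrees of freedom.

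The size of the Tapbp rise was steady and its call was not. Over 19 other ways of fitting, the Tapbp log2 fold change ran from 0.39 to 0.50 and its adjusted p from 1.24e-06 to 0.106, with 14 of 19 under 0.05. With 1 library left out at a time it was called in 6 of 9 fits. Leaving out WT 3 ended the call (edgeR adjusted p = 0.0777), as did leaving out E-cad-KO 1 (0.0591), E-cad-KO 4 (0.0566), or the pair WT 1 and WT 4 (0.0815). With the macrophage marker score as a covariate the Tapbp log2 fold change was 0.45 (edgeR adjusted p = 0.00467), in a fit that called 1190 genes against 244 without the covariate. The score averaged 0.06 over the WT libraries (SD 1.744, n = 4) and -0.048 over the E-cad-KO libraries (SD 1.021, n = 5). With group means so close, adding it could change the fitted fold little. Epithelial markers also lay on the higher side in E-cad-KO: of 8, 7 had a positive log2 fold change, 6 had an unadjusted p under 0.05 by edgeR and 0 were called (median 0.40). Background shares were 48% of tested genes with a positive log2 fold change and 16.7% with an edgeR unadjusted p under 0.05. Negative log2 fold changes were fitted for 14 of the 15 macrophage markers, with 0 calls by edgeR and none at an unadjusted p under 0.05 (median -0.62). Their sum peaked in WT 4 (401.5 CPM), with at most 101.7 in any other WT sample and 166.6 in any E-cad-KO sample. With limma-voom the median of these markers was 0.049. A fall of macrophage RNA in E-cad-KO was therefore not shown. All 5 tested endothelial markers were on the negative side, 2 of them at an unadjusted p under 0.05 and 0 called by edgeR (median -0.94). The part of the epithelial and endothelial shares in the Tapbp result was not tested.

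**Figure D2:**
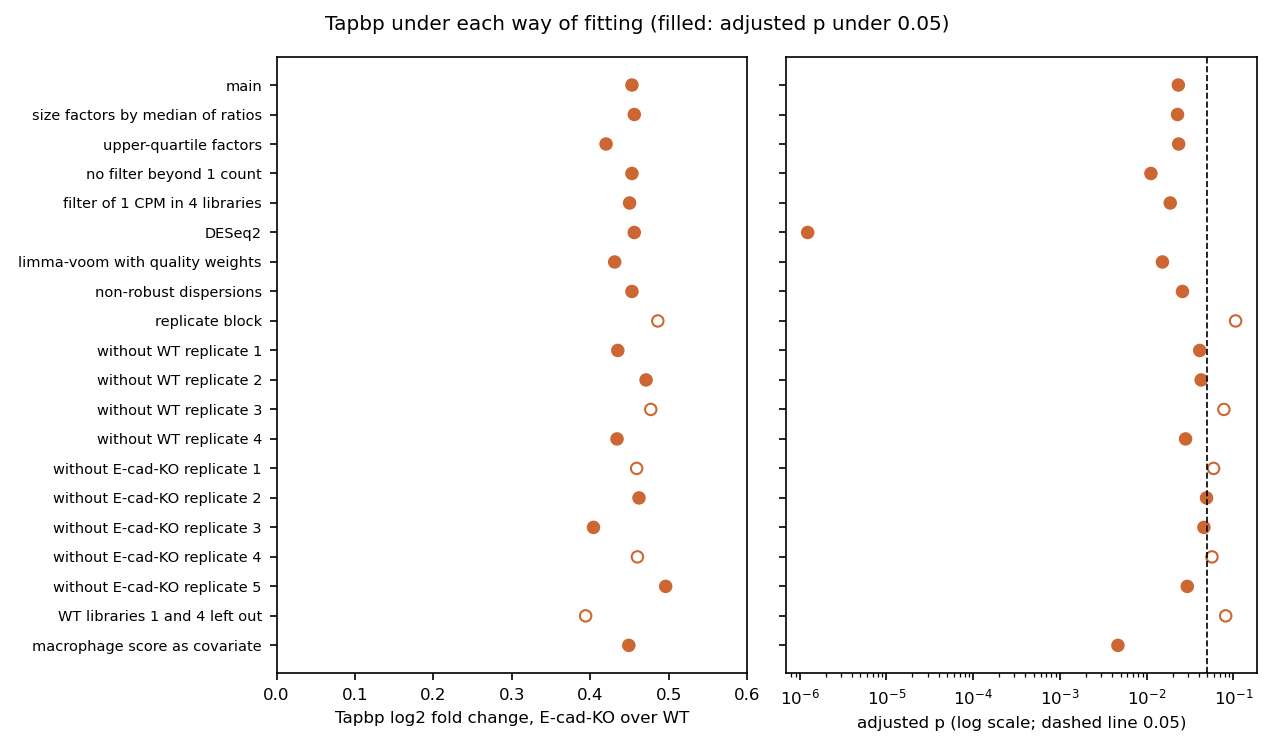
Tapbp log2 fold change, E-cad-KO over WT (left), and its adjusted p on a log axis (right), for each way of fitting named at the left, filled where the adjusted p was under 0.05. The log2 fold change stays between 0.39 and 0.50, while the adjusted p lies on both sides of 0.05.

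Tapbp (ENSMUSG00000024308; GRCm38 chromosome 17, 33915899 to 33929292, plus strand) shares exon bases with 2 neighbours, 149 with Zbtb22 on its own strand and 904 with the antisense gene Gm19412. The rule by which the authors' counting assigned reads in shared bases is one the sources used here do not give. Zbtb22 stood at 36.8 ± 3.59 CPM over the WT libraries (SD, n = 4) against 36.8 ± 3.08 CPM over the E-cad-KO libraries (SD, n = 5), with a log2 fold change of 0.00 (SE 0.08). Gm19412 stood at 1.60 ± 0.964 CPM over the WT libraries (SD, n = 4) against 1.68 ± 0.340 CPM over the E-cad-KO libraries (SD, n = 5), far below Tapbp. Neither neighbour passed the test. The stretch of chromosome 17 from Tapbp to the end of H2-D1, 33915899 to 35267499, holds 7 of the 10 members. Of the 82 tested genes inside it Tapbp was the only one called (1.22%, against 1.41% of all tested genes), and the median log2 fold change there was 0.01.

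Whether Tapbp moved apart from the other members was tested on the ratio of their CPM within each library, which does not depend on library scaling. These ratios were chosen with the Tapbp result known, its libraries being already apart between the groups. Those that hold Tapbp share its values, and adjusting over the ratios does not cover this choice. For each of 14 ratios (Tapbp over each other member, and 5 more given further on) all 126 ways of splitting the 9 libraries into 4 and 5 were enumerated. The smallest two-sided p this allows is 0.00794. Tapbp over Tap1 was 3.40, 4.39, 4.03 and 4.72 in WT and 5.88, 4.86, 5.46, 5.47 and 5.98 in E-cad-KO. All E-cad-KO values were above all WT values (log2 difference 0.43, exact permutation p = 0.00794, 0.0222 adjusted over the 14 ratios). The same separation, with the same p-values, was found for Tapbp over H2-K1 (log2 difference 0.34), Psmb8 (0.60), Psmb9 (0.73) and Irf1 (0.34). Tapbp over H2-D1 (0.17, exact permutation p = 0.0873), B2m (0.28, 0.119), Tap2 (0.38, 0.0794) and Nlrc5 (0.79, 0.0556) overlapped between groups. A change of Tapbp unlike that of these 4 was therefore not shown. Tapbp over H2-D1 and over Tap2 reached an exact p of 0.0179 and 0.0357 once WT 4 was left out, and Tapbp over Nlrc5 reached 0.0286 without E-cad-KO 4, none of them adjusted. With any other single library left out, the exact permutation p stayed above 0.05. It ran from 0.0857 to 0.214 for H2-D1, from 0.0857 to 0.179 for Tap2 and from 0.0536 to 0.0857 for Nlrc5.

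The heavy chains, which carry the peptide groove, and the light chain were the most abundant members. H2-K1 stood at 256.2, 356.7, 275.7 and 254.0 CPM in WT and at 294.8, 295.3, 341.4, 320.4 and 278.8 CPM in E-cad-KO. WT 2 was the highest of all 9, and all 5 E-cad-KO values lay within the WT range. The H2-K1 log2 fold change, 0.10, had an SE of 0.11 (edgeR adjusted p = 0.698), with an interval of 0.901 to 1.27-fold.

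H2-D1 stood at 467.3, 615.7, 502.8 and 413.0 CPM in WT and at 590.6, 633.3, 719.4, 574.7 and 507.0 CPM in E-cad-KO. Only 2 of the 5 E-cad-KO libraries were above the highest WT library. The H2-D1 log2 fold change, 0.28, had an SE of 0.13 (edgeR adjusted p = 0.304), with an interval of 0.985 to 1.49-fold, so a rise as large as that of Tapbp lies inside it. The ratio of H2-D1 to H2-K1 was 1.75 ± 0.0945 over the WT libraries (SD, n = 4) against 1.97 ± 0.161 over the E-cad-KO libraries (SD, n = 5), a difference that did not pass (exact permutation p = 0.0794, 0.122 adjusted). Both genes are close copies of each other and of the H2-Q and H2-T genes, and reads of another haplotype were mapped to the C57BL/6J reference, so the split of reads between them is uncertain.

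B2m, whose product every class I molecule needs, stood at 614.1, 744.4, 629.2 and 892.0 CPM in WT and at 700.3, 743.0, 823.0, 988.9 and 767.2 CPM in E-cad-KO. WT 4 and E-cad-KO 4 were the highest of their groups, and the groups overlapped. The B2m log2 fold change, 0.16, had an SE of 0.13 (edgeR adjusted p = 0.595). B2m is made by nearly all cells, leukocytes included. The macrophage marker score was highest in WT 4 (2.28) and 0.85 in E-cad-KO 4, and the part of other cells in B2m was not tested beyond the relation given further on.

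The transporter subunit genes Tap1 and Tap2 showed no shift between groups that exceeded their spread. Tap1 stood at 21.6, 18.3, 20.2 and 15.8 CPM in WT and at 18.0, 21.3, 21.99, 19.1 and 16.0 CPM in E-cad-KO (log2 change 0.02, SE 0.12, edgeR adjusted p = 0.952). Tap2 stood at 39.8, 33.7, 38.6 and 23.8 CPM in WT and at 35.3, 41.7, 43.9, 32.3 and 25.0 CPM in E-cad-KO (log2 change 0.07, SE 0.19, edgeR adjusted p = 0.906). In both genes the lowest library of each group was WT 4 and E-cad-KO 5, the same 2 libraries that had the highest macrophage scores of their groups. The intervals of the fold were 0.839 to 1.23 for Tap1 and 0.769 to 1.43 for Tap2, so for Tap1 a rise of the size fitted for Tapbp lies outside and for Tap2 it lies inside. Both signs depended on the scaling or tool used: Tap1 was negative with upper-quartile factors, and both were negative with limma-voom.

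The immunoproteasome genes Psmb8 and Psmb9 encode catalytic subunits that replace constitutive ones and favour peptides fit for class I. Psmb8 stood at 88.2, 86.0, 95.2 and 67.5 CPM in WT and at 76.5, 69.3, 85.1, 84.0 and 62.8 CPM in E-cad-KO (log2 change -0.16, SE 0.11, edgeR adjusted p = 0.545). Psmb9 stood at 17.2, 18.1, 19.8 and 14.5 CPM in WT and at 14.3, 13.5, 15.7, 16.0 and 12.0 CPM in E-cad-KO. Of the E-cad-KO libraries 3 were below the lowest WT library, WT 4, and 2 were not. The fitted change of Psmb9 on the log2 scale was -0.28 (SE 0.11), with an edgeR unadjusted p of 0.0306 and an adjusted p of 0.237. It was negative in all 19 alternatives and called in 0 of them (adjusted p from 0.0945 to 0.468).

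The exchange of constitutive for immunoproteasome subunits was read as a ratio of CPM. Psmb8 over its constitutive counterpart Psmb5 was 1.02 ± 0.188 over the WT libraries (SD, n = 4) against 0.920 ± 0.0982 over the E-cad-KO libraries (SD, n = 5; exact permutation p = 0.365, 0.393 adjusted). Psmb9 over Psmb6 was 0.0613 ± 0.00797 over the WT libraries (SD, n = 4) against 0.0554 ± 0.00517 over the E-cad-KO libraries (SD, n = 5; exact permutation p = 0.222, 0.259 adjusted). Psmb6 itself was lower in all E-cad-KO than in all WT libraries, as were 3.83% of tested genes. Its log2 fold change was -0.14 (edgeR unadjusted p = 0.0213, adjusted p = 0.203). A fall shared by both genes would not show in this ratio. Psmb10 over Psmb7, the last of the 3 pairs, was 0.145 ± 0.0226 over the WT libraries (SD, n = 4) against 0.144 ± 0.0157 over the E-cad-KO libraries (SD, n = 5; exact permutation p = 0.992). None of the 3 ratios separated the groups. Psmb10 lies on chromosome 8 (105935735 to 105938444), 0.66 Mb from Cdh1, so for it a difference carried along with the floxed alleles cannot be told apart from one due to E-cadherin. Tap1 and Psmb9, which start close together on opposite strands and share 212 exon bases, had a ratio of 1.09 ± 0.116 over the WT libraries (SD, n = 4) against 1.35 ± 0.148 over the E-cad-KO libraries (SD, n = 5; exact permutation p = 0.0397, 0.0926 adjusted), which did not pass once adjusted.

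The regulators were flat or variable. Nlrc5, the transactivator that binds class I promoters with the factors at their TGACG letters and their CCAAT box, was the lowest member, at 4.48, 6.60, 6.09 and 8.69 CPM in WT and at 6.39, 3.75, 4.88, 7.83 and 3.36 CPM in E-cad-KO. The groups overlapped, with both the highest library (WT 4) and the lowest (E-cad-KO 5) having the highest macrophage score of their group, and the Nlrc5 log2 fold change of -0.30 had an SE of 0.27 (edgeR adjusted p = 0.634). Nlrc5 lies on chromosome 8 at 94434356 to 94527272, 12.1 Mb from Cdh1, so a difference carried along with the floxed alleles and one due to E-cadherin cannot be told apart for it. Of 923 tested genes on chromosome 8, 25 were called (2.71%, against 1.41% of all tested genes). Irf1, an interferon-induced activator of the class I genes, stood at 70.1, 70.8, 70.9 and 62.5 CPM in WT and at 68.6, 69.8, 80.7, 78.6 and 71.4 CPM in E-cad-KO. Of the 5 E-cad-KO libraries 3 were above all WT libraries, and the log2 fold change of 0.11 had an SE of 0.07 (edgeR adjusted p = 0.47), with an interval of 0.964 to 1.20-fold.

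Compared per length, the members span 3 orders of magnitude. RPKM here is CPM per kilobase of all annotated exons of a gene, which counts exons of unused transcripts and lowers the level of genes that have many. In WT the order was B2m (837 ± 150 RPKM; SD, n = 4), H2-D1 (194 ± 33.2), H2-K1 (97.2 ± 16.5), Psmb8 (24.9 ± 3.50), Tapbp (21.3 ± 1.08), Irf1 (17.2 ± 1.02), Tap2 (8.99 ± 1.93), Psmb9 (4.75 ± 0.603), Tap1 (3.46 ± 0.466) and Nlrc5 (0.761 ± 0.204). WT libraries of neighbours in that order overlapped only for Psmb8 and Tapbp. In E-cad-KO Tapbp stood at 29.2 ± 2.45 RPKM (SD, n = 5) and its libraries were all above those of Psmb8 (22.3 ± 2.82), while Psmb8 and Irf1 (18.6 ± 1.37) overlapped, as did Psmb9 (3.91 ± 0.451) and Tap1 (3.52 ± 0.447). With the longest transcript as the length, Irf1 (32.1 RPKM in WT) moved above Tapbp (26.7 RPKM in WT), and the rest of the WT order was kept. In E-cad-KO, Tapbp (36.5 ± 3.06 RPKM; SD, n = 5) then lay below Psmb8 (39.6 ± 5 RPKM). Their libraries overlapped, so the separation of Tapbp from Psmb8 in E-cad-KO depended on the length used.

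**Figure D3:**
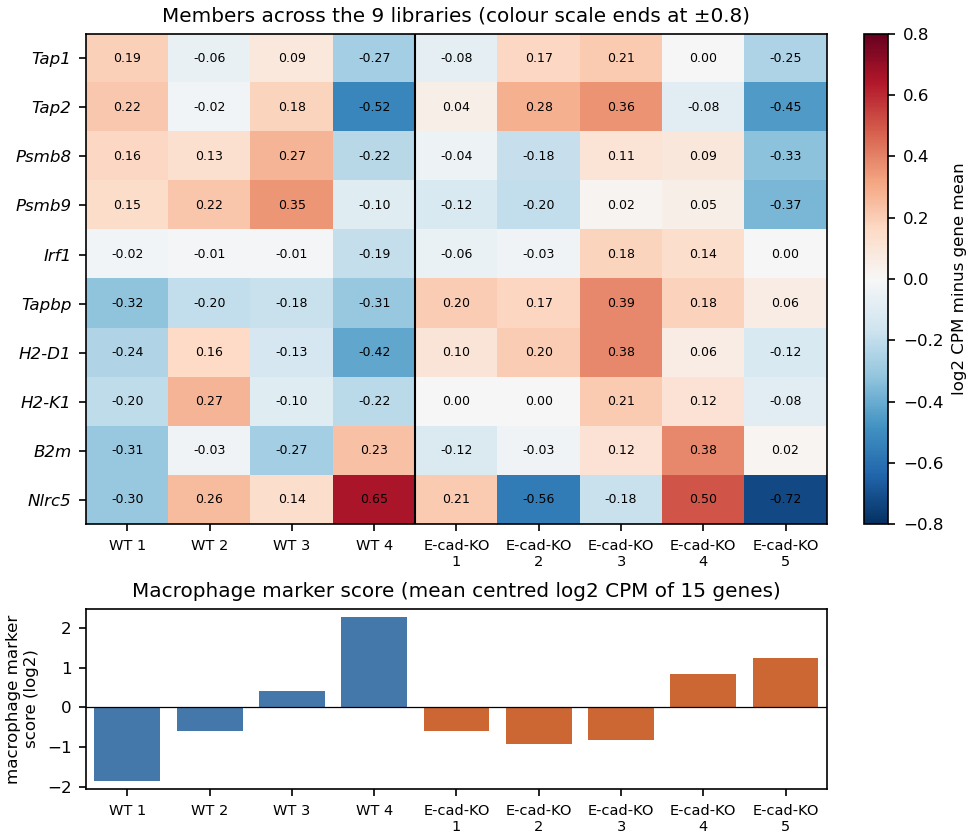
Upper panel: log2 CPM of each member minus its mean over the 9 libraries, printed in each cell and coloured from -0.8 to 0.8, with a line between WT and E-cad-KO. Lower panel: macrophage marker score of each library. Tap1 and Tap2 are lowest in WT 4 and E-cad-KO 5, and Tapbp is below its mean in all 4 WT libraries and above it in all 5 E-cad-KO libraries.

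Among themselves the members varied in pairs. Correlations were taken over the 9 libraries after subtracting each group's mean, with all 2880 permutations within groups, for 45 pairs. Psmb8 and Psmb9 moved together (Pearson r = 0.98, exact permutation p = 0.00139, 0.0391 adjusted over the 45 pairs; Spearman rho = 0.93, p = 0.00625), and r was 0.92 without the 2 libraries farthest from the median. Tap1 and Tap2 did too (r = 0.96, exact permutation p = 0.00174, 0.0391 adjusted; rho = 0.92, p = 0.00486; r = 0.89 without the 2 farthest libraries). H2-K1 and H2-D1 came next (r = 0.87, exact permutation p = 0.00521, 0.0781 adjusted; rho = 0.87, p = 0.0135; r = 0.59 without the 2 farthest libraries) and did not pass once adjusted. Tap1 and Psmb9, which share an upstream stretch, had r = 0.66 (exact permutation p = 0.0795, 0.232 adjusted; rho = 0.42, p = 0.307), and r was -0.08 without the 2 farthest libraries. The libraries share a scaling and differ in their makeup of cells, which such correlations contain.

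The relation of each member to the macrophage marker score was taken in the same way, as a family of 10. Tap2 had the strongest one and was lower where the score was higher (r = -0.85, exact permutation p = 0.00729, 0.0729 adjusted; rho = -0.90, p = 0.00764). Without the 2 libraries farthest from the median r was -0.59. Tap1 had r = -0.80 (exact permutation p = 0.0247, 0.123 adjusted; rho = -0.83, p = 0.0188) and -0.48 without those libraries. B2m had r = 0.66 (exact permutation p = 0.0948, 0.308 adjusted; rho = 0.58, p = 0.169), and Tapbp had r = -0.33 (exact permutation p = 0.353, 0.436 adjusted; rho = -0.20, p = 0.642). Without the 2 farthest libraries r turned from negative to positive for Tapbp (0.19), H2-K1 (0.22), Psmb8 (0.45), Psmb9 (0.72) and Irf1 (0.25). It kept its sign for B2m (0.59), H2-D1 (-0.12) and Nlrc5 (0.78), as for Tap1 and Tap2. None of the 10 passed once adjusted.

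The genes most like the set were found by the correlation of their log2 CPM, over the 9 libraries, with the mean of the members, each centred on its own mean. Of 11217 other genes with a mean of at least 5 CPM, the 8 highest were Zfp947 (r = 0.94), Lgals9 (0.94), Taf10 (0.90), H2-Q7 (0.89), Ifnar2 (0.88), Caml (0.86), Tmem238 (0.86) and Gm13331 (0.85). They are given as a description of 9 libraries. Among them H2-Q7 is a class I gene outside the 10 members, and Ifnar2 encodes a subunit of the type I interferon receptor.

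Among the other genes of the class I pathway none passed the test. Of 22 on the list 21 were tested, 0 were called by edgeR, 10 had a positive and 11 a negative log2 fold change, and the median was 0.00. At an unadjusted p under 0.05 there were 1 higher and 2 lower by edgeR. Over all tested genes 16.7% had such a p and 1.41% were called, so these genes did not stand out as a list. Tapbpl, which encodes the tapasin-related editor TAPBPR, stood at 16.1 ± 1.54 CPM over the WT libraries (SD, n = 4) against 18.9 ± 0.957 CPM over the E-cad-KO libraries (SD, n = 5; log2 fold change 0.24, edgeR adjusted p = 0.171). H2-T23, which encodes the nonclassical molecule Qa-1 that NK cells read, stood at 21.6 ± 2.94 CPM over the WT libraries (SD, n = 4) against 16.3 ± 1.83 CPM over the E-cad-KO libraries (SD, n = 5; log2 fold change -0.40, edgeR adjusted p = 0.1). H2-T10 (-0.22, edgeR adjusted p = 0.239) and Mr1, which presents microbial vitamin metabolites (-0.29, edgeR adjusted p = 0.327), were also on the negative side. H2-T23 was called by limma-voom, DESeq2 and the fit with the macrophage score, and in 1 of the 9 fits with a library left out.

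**Figure D4:**
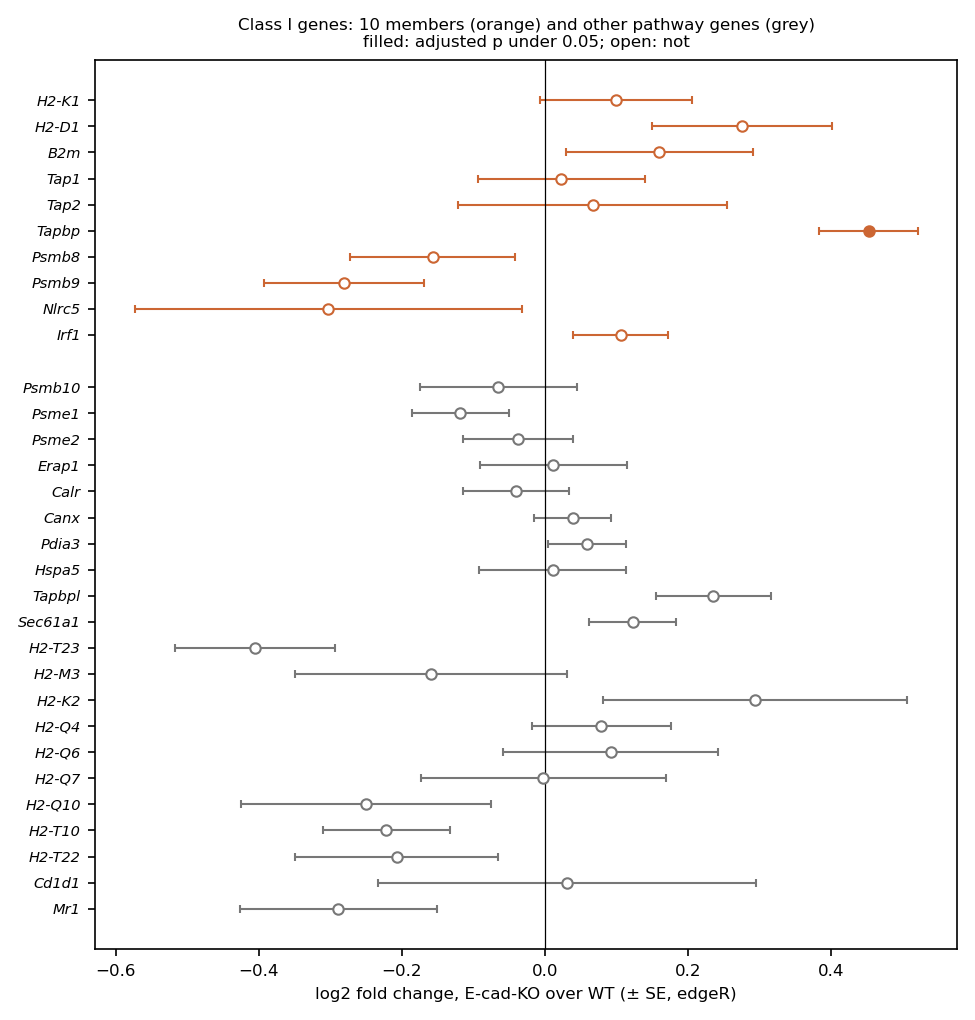
Log2 fold change, E-cad-KO over WT, with its standard error (x axis) for the 10 members (orange) and 21 other genes of the class I pathway (grey); filled points had an edgeR adjusted p under 0.05. Tapbp at 0.45 is the only filled point, and the rest lie on both sides of 0, with H2-T23 at -0.40 the lowest.

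The constitutive proteasome, which supplies peptides in all cells, was on the lower side. Negative log2 fold changes were fitted for 13 of its 15 genes, of which 0 were called, with 1 higher and 5 lower at an unadjusted p under 0.05 by edgeR (median -0.07). Over all tested genes 48% had a positive log2 fold change and 16.7% an unadjusted p under 0.05. For 5 genes all E-cad-KO libraries were below all WT libraries, which was so for 3.83% of tested genes. Psma7, a subunit of the outer ring, stood at 312 ± 8.41 CPM over the WT libraries (SD, n = 4) against 278 ± 6.96 CPM over the E-cad-KO libraries (SD, n = 5; log2 fold change -0.17, edgeR adjusted p = 0.105). Psmb4 (-0.17, edgeR adjusted p = 0.123) and Psmb1 (-0.17, edgeR adjusted p = 0.153) were alike in size, and the activator gene Psme3 lay the other way (0.18, edgeR adjusted p = 0.084). These differences were far smaller than that of Tapbp, and none passed in this fit.

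Regulators of class I transcription gave 0 calls among 13 genes, 10 of them with a positive log2 fold change (median 0.06, with 2 higher and 2 lower at an unadjusted p under 0.05 by edgeR). The background was again 48% positive and 16.7% at an edgeR unadjusted p under 0.05. Nfkb1, an NF-kB subunit, stood at 78.2 ± 8.55 CPM over the WT libraries (SD, n = 4) against 98.3 ± 5.98 CPM over the E-cad-KO libraries (SD, n = 5), without overlap (log2 change 0.33, edgeR adjusted p = 0.0697). Such a separation on the higher side was found for 4.28% of tested genes. Its partner Rela stood at 0.22 (edgeR adjusted p = 0.209). Of the factors at the class I promoter, Nfyc, a subunit of the CCAAT-binding factor, was at -0.20 (edgeR adjusted p = 0.0801) and Rfxank, a subunit of RFX, at -0.20 (edgeR adjusted p = 0.27). Nfyc was lower in all E-cad-KO than in all WT libraries, as were 3.83% of tested genes. Ciita, the class II transactivator, was barely detected (1.38 ± 0.566 CPM in WT; SD, n = 4).

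Interferon ligands were near the limit of detection. Ifnl3 had 0 counts in every library, Ifng was at 0 in 8 of 9 libraries with at most 1 count, and Ifnb1 had at most 4 counts. Receptors and signalling genes were measured well: 16 of 22 on the list were tested, 14 had a positive log2 fold change and 0 were called (median 0.14, with 5 higher and 0 lower at an unadjusted p under 0.05 by edgeR). For this list and the next, the background was 48% of tested genes positive and 16.7% at an edgeR unadjusted p under 0.05. Usp18, a feedback inhibitor of type I interferon signalling, stood at 4.87 ± 1.18 CPM over the WT libraries (SD, n = 4) against 10.3 ± 3.72 CPM over the E-cad-KO libraries (SD, n = 5; log2 fold change 1.08, edgeR adjusted p = 0.0887). Stat2 (0.38, edgeR adjusted p = 0.0934), Socs1 (0.51, edgeR adjusted p = 0.155) and the lambda receptor gene Ifnlr1 (0.18, edgeR adjusted p = 0.234) came next. Targets of interferon-gamma outside class I gave 0 calls among 16 tested (13 positive, median 0.20, with 4 higher and 0 lower at an unadjusted p under 0.05 by edgeR). Gbp3, a guanylate-binding protein, stood at 9.18 ± 2.25 CPM over the WT libraries (SD, n = 4) against 17.7 ± 4.19 CPM over the E-cad-KO libraries (SD, n = 5; log2 fold change 0.95, edgeR adjusted p = 0.0574), while Irgm2 stood at 0.49 (edgeR adjusted p = 0.283) and Wars at 0.19 (edgeR adjusted p = 0.163). Gbp3 was called in 3 of 19 other fits. Socs1 is on both of these lists and is counted in each.

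MHC class II genes, which mark professional antigen-presenting cells, were low throughout. The 10 genes, with Ciita counted here as well as among the regulators, summed to 14.3 to 18.2 CPM in WT and 10.7 to 17.7 CPM in E-cad-KO, against 1653 to 2030 and 1839 to 2256 CPM for the 10 class I members. H2-Ab1 stood at 1.92 ± 0.511 CPM over the WT libraries (SD, n = 4) against 1.25 ± 0.664 CPM over the E-cad-KO libraries (SD, n = 5; log2 fold change -0.63, edgeR adjusted p = 0.43). Of 7 tested 0 were called and 5 had a negative log2 fold change, with none at an unadjusted p under 0.05 by edgeR (background 16.7%). The largest parts of the sum in WT were H2-DMb1 (5.22 CPM), H2-DMb2 (4.33 CPM) and H2-DMa (2.67 CPM). From WT 1, lowest in macrophage markers, to WT 4, highest, H2-Ab1 went from 138 to 65 counts. H2-Aa went from 0 to 54 counts and Cd74 from 0 to 79. Neither the sum nor H2-Ab1 therefore tracks antigen-presenting cells here.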

How the data were processed

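The authors deposited raw counts per gene for each of the 9 samples, 1 column a sample. The tools named per the submitters' processing notes are HTSeq, TopHat2 and Bowtie2, and the build is GRCm38. Not given in the sources used here: versions, annotation release, strand setting. Per the labels' protocols, RNA came from frozen gels and libraries from a stranded mRNA kit. Symbols were found for 51633 of 51912 genes. Positions and exon lengths came from GENCODE M21 on GRCm38.

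Counts were tested with edgeR 4.0.16 in R 4.3.3 (quasi-likelihood F-test, TMM, robust, filterByExpr, group as the only term, Benjamini-Hochberg over 17289 genes, two-sided). Log2 CPM for correlations and scores used a prior count of 2. A standard error is the log2 fold change divided by the square root of F. Alternatives used DESeq2 1.42.0, limma 3.58.1, other scalings and filters, a replicate block, a macrophage covariate and left-out libraries. Counts were simulated once for this comparison over 17289 genes, with 200 genes changed 1.5-, 2- or 4-fold. There edgeR recovered 64.2% of genes changed 1.5-fold. Of all calls at any fold, 5.5% were false with edgeR, 5.6% with limma-voom and 21.4% with DESeq2. The simulated noise was independent between genes, so it lacked shared differences in the makeup of cells. The members are fixed by symbol, but this set, like the lists, was proposed with earlier results of these data known. All members are named, with up to 4 genes of each other list by smallest p and the 8 genes most like the set. CPM ratios and correlations between members were chosen after the data were seen. No pair of libraries of a group agreed within sampling noise (smallest chi-square per degree of freedom 14.8).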

Additional observations from a re-analysis of the deposited data

Results flagged for a closer look

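Of 26 groups of values examined (10 members, Cdh1 and 2 scores in each of 2 groups), 2 held a library far from the others, and chance alone marks about 1 in 20. Irf1 in WT 4 was 62.5 CPM, below the other 3 WT libraries, and the gap was 0.909 of the group's range. Cdh1 in E-cad-KO 2 was 118 CPM, above the other 4 E-cad-KO libraries, with a gap of 0.79 of the range.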

How the results depend on the processing

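The number of called genes, 244, went to 1206 with DESeq2, 511 with limma-voom, 1190 with the macrophage score as covariate and 79 without WT 1 and WT 4. It ran from 9 (without WT 3) to 334 (without WT 4) with 1 library left out. With upper-quartile factors the split of 157 higher and 87 lower became 123 and 151. The count of called members, 1, became 0 without WT 1 and WT 4 and ran from 0 to 1 with 1 library left out. With the replicate number as a block, 0 genes and 0 members were called (Tapbp log2 fold change 0.49, edgeR adjusted p = 0.106), E-cad-KO 5 having no partner. Same-numbered libraries deviated with correlations of -0.324, 0.235, -0.03 and 0.284. These were not compared with libraries of different numbers, and the series ties no sample to an animal. Whether equal numbers pair the samples therefore cannot be told. Values near 0 changed sign. Tap1 went to -0.008 with upper-quartile factors and -0.019 with limma-voom, and ran from -0.056 to 0.097 with 1 library left out. Tap2 went to -0.019 with limma-voom and -0.021 without WT 1 and WT 4, and ran from -0.07 to 0.181 with 1 library left out. H2-K1 went to -0.044 without WT 1 and WT 4. The log2 difference of Psmb10 over Psmb7 ran from -0.092 to 0.091 with 1 library left out. For these changes the cause was not tested. The median of the members ran from -0.004 to 0.134 with 1 library left out and was -0.007 without WT 1 and WT 4. The Cdh1 call was lost in 7 of 19 alternatives: the block, WT 1 and WT 4 left out, and WT 3 or E-cad-KO 1, 3, 4 or 5 left out. DESeq2 exceeded its nominal rate of false calls on simulated counts.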
